A study of Mus musculus with 2 samples.

Results

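The proteasome genes of mouse calf muscle were taken as every gene whose symbol joins Psm to a letter from a to g and a number and that has at least 1 protein-coding transcript, and 50 of the 55536 annotated genes met this rule. They lie on 16 chromosomes and fall into 13 roles, from the rings of the core particle to activators, an inhibitor and assembly factors. Total RNA was sequenced from the gastrocnemius of 2 male B6Cast F1 mice (strain B6CASTF1/J, a cross of C57BL/6J and CAST/EiJ) at 25 days of age, as 1 library per animal from 300 ng of RNA. There was 1 group and no treatment, so the comparisons are between genes within an animal, mainly the constitutive against the immune catalytic subunits, and between the libraries of animal 1 and animal 2. The labels number the tissue samples as different males but give both the same donor entry, so tests between the libraries describe those libraries and carry counting error only. Levels are TPM (a length-corrected share of all transcripts scaled to a fixed total) as deposited, and n = 2 animals wherever an SD is given.

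The proteasome is the main protease of the cytosol and nucleus for proteins tagged with ubiquitin. Its 20S core is a stack of rings of alpha and beta subunits that encloses the catalytic sites, and its 19S cap binds ubiquitin chains, unfolds the substrate with a ring of ATPases and feeds it into the core. In immune cells, and in other cells exposed to interferon, the beta subunits that cut protein can be replaced by immune counterparts, which changes the peptides released for antigen presentation. In skeletal muscle the ubiquitin-proteasome pathway turns over myofibrillar proteins and is known for its part in muscle wasting.

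The library of animal 1 held 35098487 expected counts and that of animal 2 held 37428588, of which the 50 proteasome genes took 0.191% and 0.203%. Fibre markers identified the tissue, with a median of 16973 ± 586 TPM over 5 of 5 genes such as Acta1, Ckm and Myh4. Of 12 leukocyte markers, 5 reached 1 TPM in both animals, their summed level was 34.6 TPM in animal 1 against 34.9 TPM in animal 2, and Ncr1 was at 0 counts in both. All 5 endothelial markers were detected, and none of 4 germ cell markers was.

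At 1 TPM or more in both animals, 44 of the 50 genes were detected, whereas 45.2% of all 22028 protein-coding genes were. The 31 genes of the core 20S and 19S particle were all among them, and ranked from the 77.5th to the 96.4th percentile of detected nuclear protein-coding genes. Their median was 43.8 TPM in animal 1 and 44.7 TPM in animal 2 (44.3 ± 0.63 TPM), against 6.54 and 7.05 TPM over the 9937 detected nuclear protein-coding genes. The core genes also lay close together, with an SD of log2 TPM of 0.67 across the 31 genes and 1.85 across the detected genes. The 6 genes that were not detected were the immune subunits Psmb8 and Psmb9, the testis subunit Psma8, the thymus subunit Psmb11, the activator copy Psme2b and Psmc3ip.

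**Figure D1:**
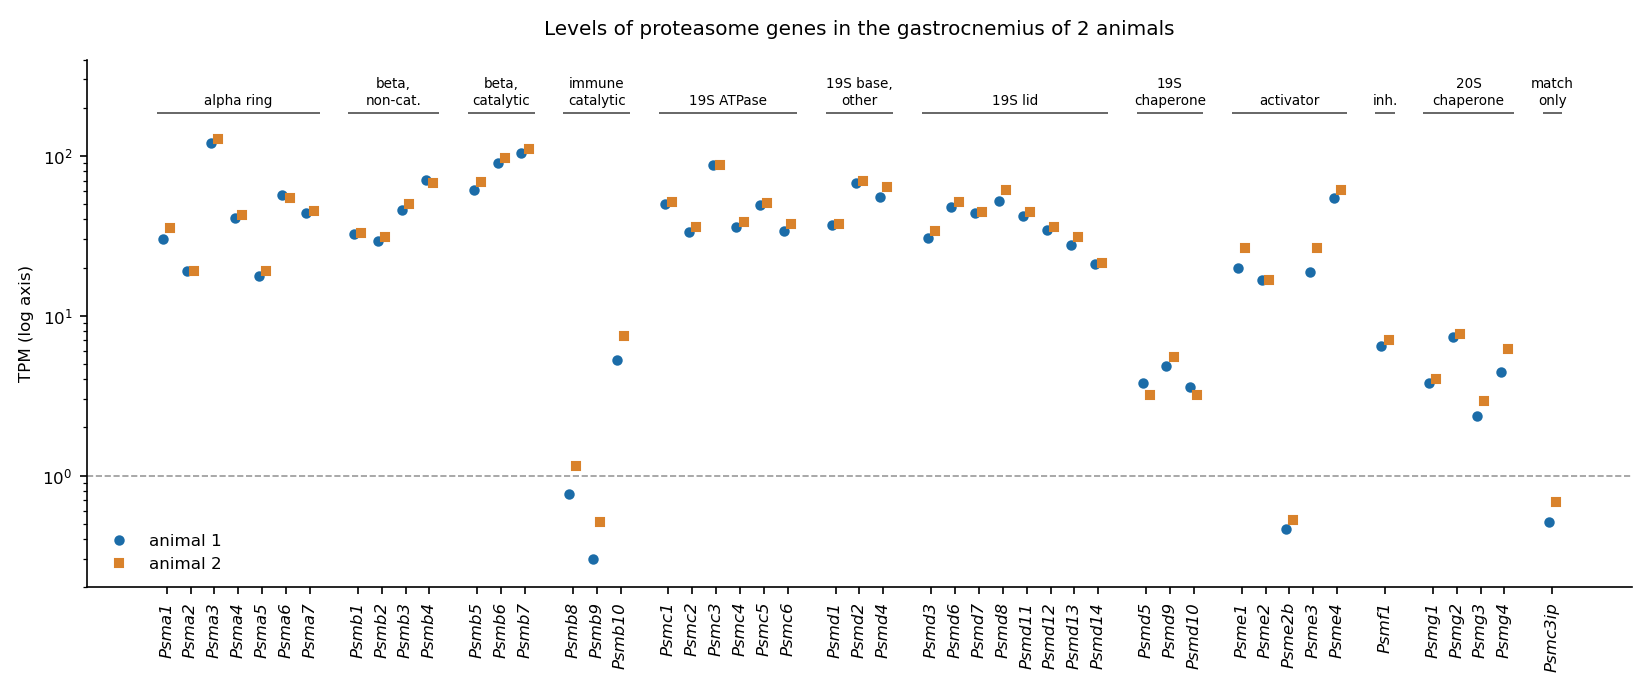
Level of each proteasome gene in TPM (log axis) in animal 1 (circles) and animal 2 (squares), grouped by role, with a dashed line at 1 TPM; Psma8 and Psmb11 had 0 counts in both animals and are not drawn. Core ring, ATPase, base and lid genes sit between 17.7 and 127 TPM, assembly factors between 2.35 and 7.63 TPM, and Psmb8 and Psmb9 near or below the line.

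The 7 alpha ring genes, whose products form the gated entry of the core, stood at a median of 40.9 TPM in animal 1 and 42.4 TPM in animal 2. Over all transcript types, Psma3 was the highest gene of the whole core with 121 TPM in animal 1 and 127 TPM in animal 2. In coding transcripts alone it was at 79.7 TPM in animal 1 and 87.1 TPM in animal 2, below Psmb7 at 104 TPM and 110 TPM. Psma5 had the lowest mean, with 17.7 TPM in animal 1 and 19 TPM in animal 2, and the mean of Psma3 was 6.77 times above it. Psma2 was beside it with 18.9 TPM in animal 1 and 19 TPM in animal 2, and below it in the second quantification. The levels of Psma3 and Psma5 are uncertain in the same way, because much of each coding transcript is also present elsewhere. Of all stretches of 31 bases in the main coding transcript of Psma3, 79.0% also occur in the processed pseudogene Gm13835, listed at 9.53 TPM in animal 1 and 9.66 TPM in animal 2. For Psma5 the share found in any other gene was 64.0%, mostly in Gm8394, listed at 4.48 TPM and 3.14 TPM. Over all 50 genes, 26 shared no such stretch with another gene and 6 shared more than 50% of them.

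The 4 beta ring genes without a catalytic site, Psmb1 to Psmb4, centred on a median of 39.2 TPM in animal 1 and 41.5 TPM in animal 2. Psmb4, whose yeast counterpart helps to join the half-cores, led with 70.5 TPM in animal 1 and 67.2 TPM in animal 2. Psmb2 was lowest with 29.2 TPM in animal 1 and 31.2 TPM in animal 2. In coding transcripts alone, Psmb4 was at 38.8 TPM in animal 1 and 45.2 TPM in animal 2, below Psmb3 at 45.4 TPM and 49.5 TPM. Of the 3 constitutive catalytic genes, Psmb6 and Psmb7 stood above every other beta ring gene in both animals and Psmb5 was close to Psmb4, with a median over the 3 of 90.2 TPM in animal 1 and 96.8 TPM in animal 2. Psmb6 carries the caspase-like site (position beta1), Psmb7 the trypsin-like site (beta2) and Psmb5 the chymotrypsin-like site (beta5).

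At every catalytic position the constitutive gene was far above its immune counterpart in both animals, and the distance was smallest at beta2. Psmb6 (chromosome 11, 70525367 to 70527858, plus strand) was at 90.2 TPM in animal 1 and 96.8 TPM in animal 2. Its counterpart Psmb9 (chromosome 17, 34181987 to 34187764, minus strand) was at 0.30 TPM in animal 1 and 0.51 TPM in animal 2, from 8 and 9 counts over effective lengths of 922 and 579 bases. The log2 ratio of Psmb6 over Psmb9 was therefore 8.23 in animal 1 and 7.57 in animal 2 (7.90 ± 0.47), and counting error alone left it between 7.25 and 9.44 in animal 1 and between 6.64 and 8.70 in animal 2. Psmb9 made up 0.428 ± 0.136% of the TPM at its position.

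At position beta5, Psmb5 (chromosome 14, 54614119 to 54618022, minus strand) stood at 61.2 TPM in animal 1 and 68.5 TPM in animal 2. Psmb8 (chromosome 17, 34197721 to 34201454, plus strand), its immune counterpart, stood at 0.77 TPM in animal 1 and 1.14 TPM in animal 2, so that 1 of the animals passed the detection level. These levels rest on 20 counts in animal 1 (exact Poisson 95% interval 12.2 to 30.9) and 33 counts in animal 2 (22.7 to 46.3), and the intervals overlap. The log2 ratio of Psmb5 over Psmb8 was 6.31 in animal 1 and 5.91 in animal 2 (6.11 ± 0.28), which is 79.4-fold and 60.1-fold.

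Position beta2 differed in size. Psmb7 (chromosome 2, 38588036 to 38644087, minus strand) was at 105 TPM in animal 1 and 110 TPM in animal 2, the highest of the catalytic genes. Psmb10 (chromosome 8, 105935735 to 105938444, minus strand) was at 5.31 TPM in animal 1 and 7.47 TPM in animal 2, close to the median detected gene, from 97 and 132 counts. The log2 ratio of Psmb7 over Psmb10 was 4.30 in animal 1 and 3.88 in animal 2 (4.09 ± 0.30), and the counting intervals, 4.01 to 4.6 and 3.63 to 4.14, lay below those of both other positions. Most of the level of Psmb10 was assigned to transcripts of non-coding types. Protein-coding transcripts held 25.6% of its TPM in animal 1 and 18.7% in animal 2, and a transcript of the type processed transcript led. With protein-coding transcripts alone, the log2 ratio of Psmb7 over Psmb10 was 6.28 ± 0.02, beside 6.64 ± 0.46 for Psmb5 over Psmb8 and 8.04 ± 0.41 for Psmb6 over Psmb9.

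Summed over the 3 positions, the constitutive genes reached 256 TPM in animal 1 and 275 TPM in animal 2, whereas the immune genes reached 6.38 TPM and 9.12 TPM. The immune share of catalytic TPM was 2.43% in animal 1 and 3.21% in animal 2 (2.82 ± 0.55%). Over protein-coding transcripts alone it was 0.919 ± 0.103%. In expected counts it was 1.92% in animal 1 (125 of 6522; Wilson 95% interval 1.61 to 2.28) and 2.34% in animal 2 (174 of 7428; 2.02 to 2.71). The sign of each pair ratio was the same in both animals, but an exact test over 2 animals cannot go below p = 0.5 (two-sided). In bulk tissue, fewer cells that express the immune genes and less of their RNA per cell cannot be told apart. The leukocyte markers C1qa, C1qb, C1qc, Csf1r and Lyz2 were detected, and their part in the immune subunit levels was not tested.

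**Figure D2:**
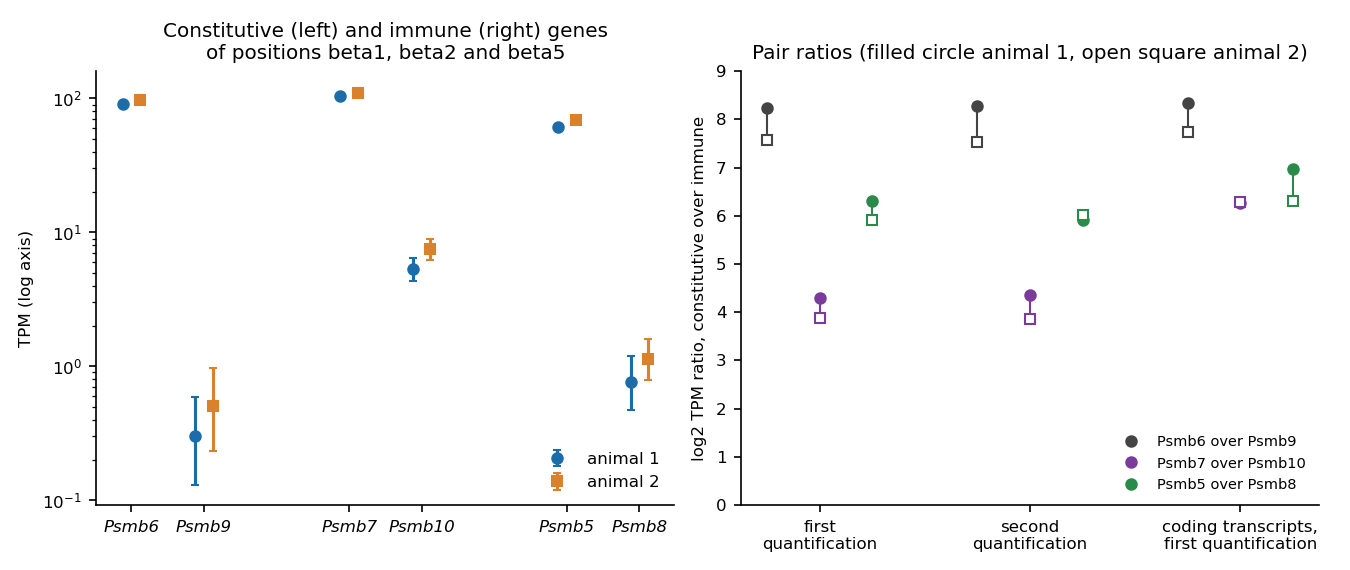
Left, TPM (log axis) of the constitutive gene and its immune counterpart at positions beta1, beta2 and beta5 in animal 1 (circles) and animal 2 (squares), with exact Poisson 95% intervals for counting error, which are within the symbol for the constitutive genes. Right, log2 ratio of constitutive over immune TPM in each animal under both quantifications and with protein-coding transcripts alone; Psmb7 over Psmb10 is near 4 over all transcripts and at 6.28 with coding transcripts.

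The genes of a catalytic pair share only short identical stretches. Aligned coding sequences were identical at 66.2% of bases for Psmb6 and Psmb9, 63.3% for Psmb7 and Psmb10 and 67.9% for Psmb5 and Psmb8, and the longest stretch shared without a difference was 18 bases. The most alike 90 bases of Psmb5 and Psmb8 are shown to make this visible, with the 19 differing bases in capitals. They are bases 267 to 356 of the coding sequence of Psmb5-201 (exon 2 of 3, mm10 chr14:54616664-54616753, minus strand) and bases 306 to 395 of Psmb8-201 (exon 3 of 6, chr17:34199581-34199670, plus strand).
Psmb5: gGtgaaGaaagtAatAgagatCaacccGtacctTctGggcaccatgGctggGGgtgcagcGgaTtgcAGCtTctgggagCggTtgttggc
Psmb8: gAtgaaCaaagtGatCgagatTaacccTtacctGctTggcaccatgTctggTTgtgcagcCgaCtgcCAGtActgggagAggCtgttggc
Psmb5 shares longer stretches with processed pseudogenes. Those of 31 bases found in another gene made up 74.0% of its transcript, and the gene sharing most, Gm3375, was listed at 5.36 TPM in animal 1 and 6.09 TPM in animal 2, far below Psmb5.

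Upstream sequence was read from the RefSeq promoter table (build GRCm38.p6), which held 45 windows for 42 of the 50 genes. The constitutive catalytic genes Psmb5 and Psmb6 are among the 4 core genes whose 250 upstream bases hold TGACNNNGC, the core of the antioxidant response element to which the factors encoded by Nfe2l1 and Nfe2l2 are known to bind. The upstream bases of Psmb7, the other constitutive catalytic gene, were not searched here. Psmb5 and Psmb6 are printed up to the first annotated exon, 5′ to 3′ on the gene's strand with the match in capitals, beside Psmb10, the only immune gene detected, in which none of the 4 motifs searched was found.
Psmb5 (chr14:54618023-54618245, minus strand): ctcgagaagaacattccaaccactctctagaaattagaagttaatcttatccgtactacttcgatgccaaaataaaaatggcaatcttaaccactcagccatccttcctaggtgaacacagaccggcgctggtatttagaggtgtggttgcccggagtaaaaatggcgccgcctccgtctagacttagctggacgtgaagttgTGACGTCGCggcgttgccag
Psmb6 (chr11:70525107-70525356, plus strand): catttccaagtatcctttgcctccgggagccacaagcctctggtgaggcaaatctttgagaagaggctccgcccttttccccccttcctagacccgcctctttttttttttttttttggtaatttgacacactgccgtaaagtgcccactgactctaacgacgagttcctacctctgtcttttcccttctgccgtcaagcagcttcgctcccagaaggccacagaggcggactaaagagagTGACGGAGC
Psmb10 (chr8:105938445-105938642, minus strand): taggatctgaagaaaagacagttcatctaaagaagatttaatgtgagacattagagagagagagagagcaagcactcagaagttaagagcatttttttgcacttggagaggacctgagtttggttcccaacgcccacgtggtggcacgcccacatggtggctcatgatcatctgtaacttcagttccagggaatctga
Searched on both strands, TGACNNNGC was in 5 of 45 windows (11.1%) and in 10.2% of all 32851 windows of the table, so its share in proteasome windows was near that of all windows. The interferon-stimulated response element core (GAAA, any 2 bases, GAAA) was in 3 windows (6.67%, against 2.98% of all), none of an immune subunit. However, the windows of Psmb8 and Psmb9 lie within the annotated spans of these genes. The bases before the outermost annotated starts of Psmb8 and Psmb9 were therefore not searched. The gamma-activated sequence core TTCNNNGAA was in 2 windows (4.44%, against 7.02%), those of Psmb8 and Psmg1. CCAAT was in 15 windows (33.3%, against 33.8%).

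The tissue-restricted paralogs were not seen. Psma8, which replaces an alpha subunit in the testis, and Psmb11, the catalytic subunit of cortical thymic epithelium, had 0 counts in both animals. At 0 counts a true level of up to 3 counts cannot be seen, which is 0.109 TPM in animal 1 and 0.103 TPM in animal 2 for Psma8 and 0.045 TPM and 0.043 TPM for Psmb11. In the second quantification Psma8 was at 0.15 TPM in animal 1 and 0 TPM in animal 2, and Psmb11 at 0.12 TPM and 0.07 TPM. Psmb11 lies 3411 bases from Psmb5 on chromosome 14, on the opposite strand. Of 3 thymic epithelium markers, Foxn1 and Epcam were also at 0 counts, and Ccl25 was detected with 4.52 TPM in animal 1 and 4.24 TPM in animal 2.

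The 19S cap stood at a level close to that of the core. Its 17 genes centred on a median of 42.1 TPM in animal 1 and 44.4 TPM in animal 2, against 44.8 TPM and 47.5 TPM for the 14 core 20S genes, a ratio of 0.938 in animal 1 and 0.936 in animal 2. The median of the 6 ATPase genes was 42.8 TPM in animal 1 and 44.7 TPM in animal 2. Psmc3 led them with 88.1 TPM in both animals, and Psmc2 was lowest with 33.4 TPM in animal 1 and 35.6 TPM in animal 2. The lowest place depended on the measure. In coding transcripts alone, Psmc6 was at 19.2 TPM in animal 1 and 22.2 TPM in animal 2, below Psmc2 at 33.2 TPM and 35.5 TPM. In the second quantification, Psmc4 was at 44.5 TPM in animal 1 and 49.8 TPM in animal 2, below Psmc2 at 50.1 TPM and 53.8 TPM. The base also holds the scaffold subunits Psmd1 and Psmd2 and the ubiquitin receptor Psmd4. Psmd2 stood at 67.7 TPM in animal 1 and 69.2 TPM in animal 2, Psmd4 at 55.3 TPM and 63.8 TPM, and Psmd1 at 36.7 TPM and 37.6 TPM.

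Lid genes lay around a median of 38.3 TPM in animal 1 and 40.3 TPM in animal 2 over 8 genes. Psmd8 was highest with 52.1 TPM in animal 1 and 61.2 TPM in animal 2. Over all transcript types, Psmd14, the metalloprotease that cuts ubiquitin chains off the substrate, was the lowest 19S gene with 21.1 TPM in animal 1 and 21.2 TPM in animal 2. In coding transcripts alone, it was at 18.0 TPM in animal 1 and 19.6 TPM in animal 2, above Psmd13 at 15.2 TPM and 18.2 TPM.

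Assembly factors were detected throughout but far below the subunits they assemble. The median of the 7 genes was 3.78 TPM in animal 1 and 4.04 TPM in animal 2, and none of them reached the lowest core subunit. Among the chaperones of the 20S alpha ring, Psmg2 was at 7.32 TPM in animal 1 and 7.63 TPM in animal 2, and Psmg4 at 4.44 TPM and 6.22 TPM. Psmg1, the partner of Psmg2, was at 3.78 TPM in animal 1 and 4.04 TPM in animal 2, and Psmg3, the partner of Psmg4, at 2.35 TPM and 2.91 TPM. Of the chaperones of the 19S base, Psmd9 was at 4.83 TPM in animal 1 and 5.55 TPM in animal 2, Psmd5 at 3.77 TPM and 3.20 TPM, and Psmd10 at 3.60 TPM and 3.19 TPM. Pomp, the maturation factor of the core that has no Psm symbol, was at 51.9 TPM in animal 1 and 53.5 TPM in animal 2, a level like that of the subunits.

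The activators, which cap the core in place of the 19S particle, covered a wide range. Psme4, the PA200 activator known from nuclei and sperm development, was the highest with 54.6 TPM in animal 1 and 61.1 TPM in animal 2. Psme1 and Psme2 encode the interferon-inducible PA28 pair and lie 5912 bases apart on chromosome 14. Psme1 was at 19.8 TPM in animal 1 and 26.4 TPM in animal 2, and Psme2 at 16.8 TPM in both. Psme3, which encodes the nuclear PA28 subunit, was at 18.7 TPM in animal 1 and 26.5 TPM in animal 2. The PA28 genes were thus well above the immune catalytic genes in both animals. Psmf1, the inhibitor of the core, was at 6.5 TPM in animal 1 and 7 TPM in animal 2.

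Psme2b, a copy of Psme2 with 1 exon on chromosome 11, was listed at 0.46 TPM in animal 1 and 0.53 TPM in animal 2. Its coding sequence is 99.3% identical to that of Psme2, with 5 differences in 717 bases, and the longest identical run is 311 bases. The 90 bases with the most differences hold 3 of them, in capitals, and show how few reads could separate the copies. They are bases 454 to 543 of the coding sequence of Psme2-208 (exons 8 and 9 of 11, mm10 chr14:55588233-55588276 and chr14:55588049-55588094, minus strand) and of Psme2b-201 (exon 1 of 1, chr11:48945576-48945665, minus strand).
Psme2: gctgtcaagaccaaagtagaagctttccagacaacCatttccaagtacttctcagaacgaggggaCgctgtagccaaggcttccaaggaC
Psme2b: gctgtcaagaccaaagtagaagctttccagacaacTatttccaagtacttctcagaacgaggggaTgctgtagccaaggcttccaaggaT
Among genes above 0 in the first quantification, Psme2b was the one on which the quantifications differed most, the second giving 0.189 of the level of the first after both were scaled over nuclear protein-coding genes. Its low level, and its split from that of Psme2, are uncertain. Psmc3ip, which matches the symbol rule but encodes a factor of meiotic recombination, was at 0.51 TPM in animal 1 and 0.68 TPM in animal 2.

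The libraries of the 2 animals differed little in proteasome genes. Of the 50 genes, 47 reached a summed count of 20 and were tested (exact conditional binomial test on scaled counts, Benjamini-Hochberg adjustment over 14754 genes). An adjusted p under 0.05 was reached by 2 of them (against 14.4% of all genes tested, and 26.5% of protein-coding genes whose summed count reached 1000), a share below the background. Both were ATPase genes with higher scaled counts in animal 1, as 7.74% of all genes tested were, against 6.64% in animal 2. Psmc1 had 1888 counts in animal 1 and 1921 in animal 2, a log2 ratio of 0.18 (adjusted p = 0.00192), and Psmc3 had 2964 and 3081 counts, a log2 ratio of 0.15 (adjusted p = 0.00113). By the ratio of TPM, on which both genes were slightly lower in animal 1, neither passed (adjusted p = 0.588 and 1.0). The count and its direction depended on the scaling. By the ratio of TPM, 12 of the 47 genes passed, all higher in animal 2, when 31.8% of all genes tested passed and 25.2% were higher in animal 2. In the second quantification 7 passed, 3 higher in animal 1 and 4 in animal 2, against 13.8% of all genes tested (6.58% higher in animal 2). Those shares are near the background. The genes that passed in the second quantification were Psmc1, Psmc3, Psmd7, Psmd8, Psme1, Psme3 and Psme4. Of these, Psmd8, Psme1, Psme3 and Psme4 also passed by the ratio of TPM.

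None of the 47 exceeded 2-fold with an adjusted p under 0.05 by this test, as 1.8% of all genes tested did. The median absolute log2 ratio was 0.08 over the 47 genes and 0.14 over all genes tested, but these sets were not matched for count. Core genes lay between −0.12 and 0.18. The widest ratio was that of Psmb8, −0.51 from 20 and 33 counts (adjusted p = 0.495). By TPM, the detected proteasome genes had a median log2 ratio of −0.10, on the side of animal 2. The median over all detected nuclear protein-coding genes was −0.12 by TPM and −0.0015 by scaled counts. For Psme3, whose counts were 1024 in animal 1 and 1314 in animal 2, the log2 ratio was −0.51 by TPM and −0.16 by scaled counts, and its effective length was 1904 bases in animal 1 and 1624 bases in animal 2.

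**Figure D3:**
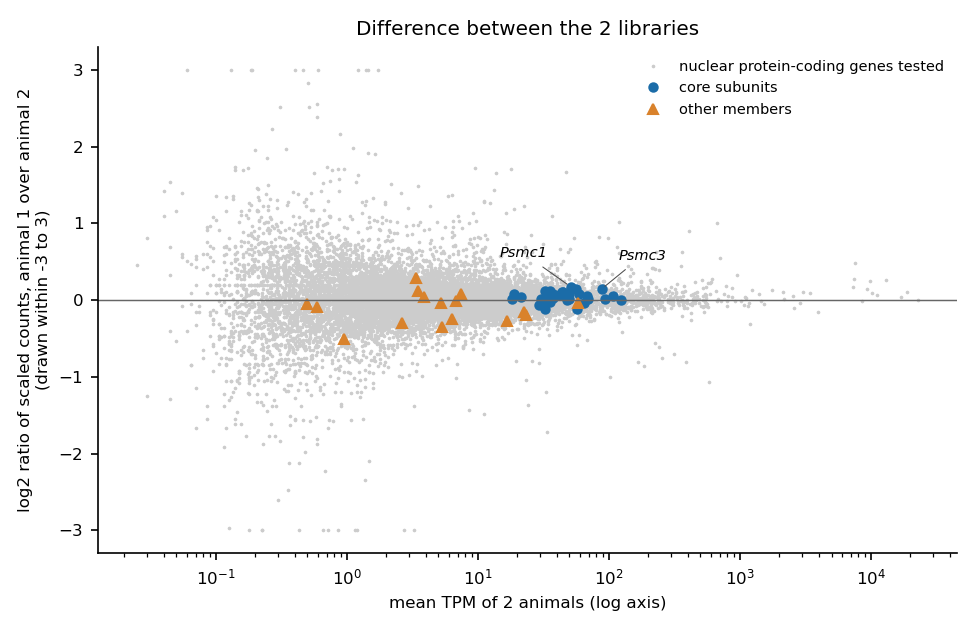
Log2 ratio of scaled counts, animal 1 over animal 2, against mean TPM (log axis) for nuclear protein-coding genes tested (grey), core subunit genes (circles) and other proteasome genes (triangles). Core genes lie between −0.12 and 0.18, and Psmc1 and Psmc3, named in the plot, passed the adjusted p by scaled counts but not by the ratio of TPM.

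Most of the RNA of the detected genes was assigned to protein-coding transcripts. The transcript with the highest TPM was protein-coding for 42 of the 44 detected genes in the first quantification (against 93.3% of detected nuclear protein-coding genes) and for 40 in the second (against 91.0%). The exceptions in the first were Psmb10 and the lid gene Psmd13. In Psmd13 a transcript of the type nonsense-mediated decay held 42.4% of the TPM in animal 1 and 41.5% in animal 2, where a coding transcript was slightly ahead of it. Psmd13 was the 1 gene whose leading transcript differed between the animals. Coding transcripts held over 90% of the TPM in 33 genes in the first quantification and 23 in the second, with a median of 96.9% and 91.9%.

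The 2 quantifications chose the same leading transcript for 34 of the 44 genes (against 77.4% of detected nuclear protein-coding genes). The 10 that differed were Psma2, Psma3, Psmb1, Psmb10, Psmc6, Psmd5, Psmd8, Psmd9, Psmd12 and Psme2. In Psma3, coding transcripts held 67.2% of the TPM in the first quantification and 3.57% in the second, which assigned most of it to a pair of transcripts of the type nonsense-mediated decay. In Psmc6, an ATPase gene, coding transcripts held 57.8% in the first quantification and 21.7% in the second, where a processed transcript led. In Psmc4, another ATPase gene, they held 93.8% in the first and 49.7% in the second. Gene levels varied less, since 2 detected genes were over 1.5-fold apart after scaling (against 6.39% of detected nuclear protein-coding genes). These were Psma2, at 0.593 of its first level in the second quantification, and Psmc6, at 1.57 times.

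**Figure D4:**
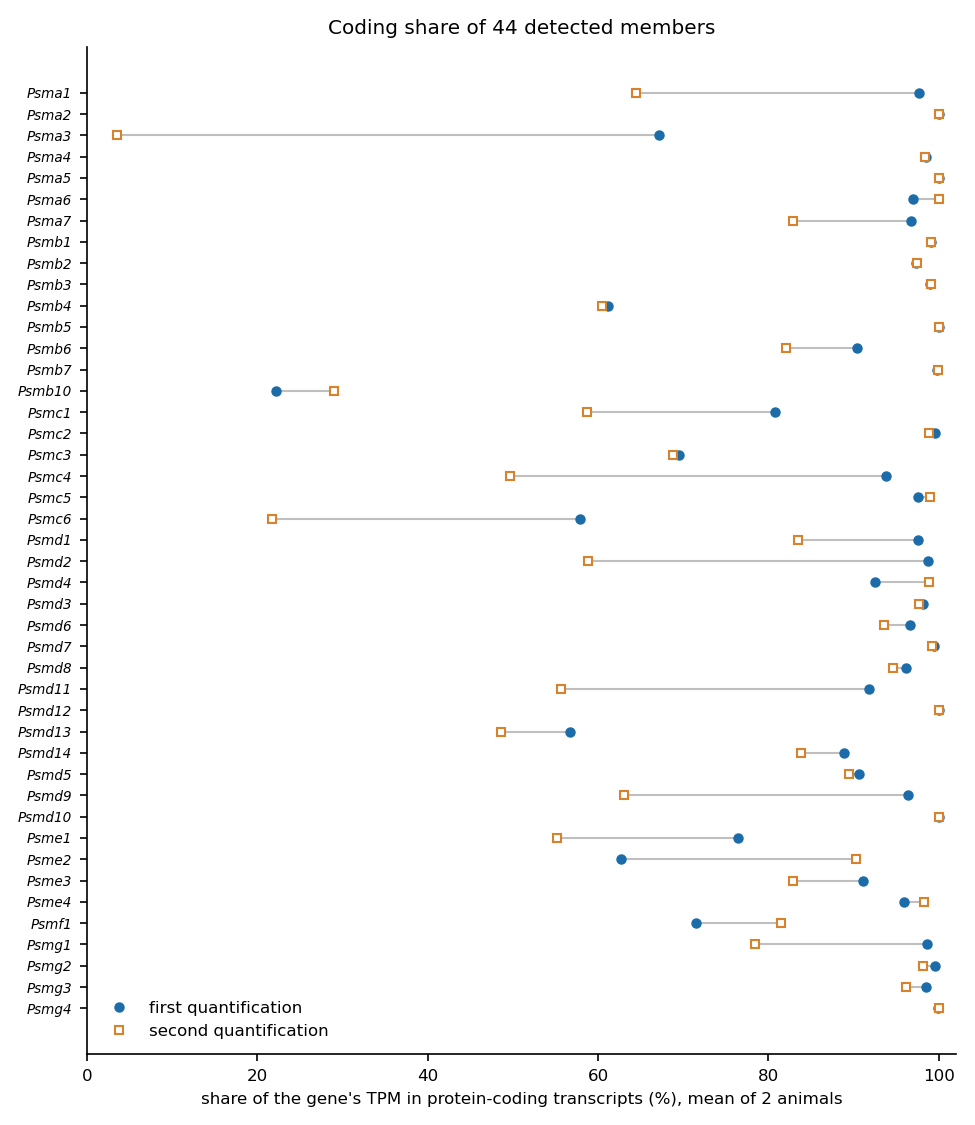
Share of each detected gene's TPM assigned to protein-coding transcripts (%, mean of 2 animals) in the first (circles) and second (squares) quantification, with a line joining the values of a gene. Psma3 moves furthest, with 67.2% in the first and 3.57% in the second, and Psmb10 is below 50% in both.

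Of the genes, 24 are overlapped by another annotated gene, 10 on the same strand and 19 on the opposite one. Psmb9 lies 9957 bases from Psmb8 on chromosome 17, and its start overlaps that of Tap1, a peptide transporter gene at 0.64 TPM in animal 1 and 0.54 TPM in animal 2, over 212 bases on the opposite strand. Psmc3 overlaps Slc39a13, at 7.83 TPM in animal 1 and 8.53 TPM in animal 2, over 4579 bases on the opposite strand.

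Genes around the proteasome without a Psm symbol were expressed alongside it. Of 12 symbols listed as proteasome partners, 9 matched an annotated gene, and all 9 were detected with a median of 24.8 TPM in animal 1 and 23.6 TPM in animal 2. Ecpas, a scaffold that binds proteasomes, led with 105 TPM in animal 1 and 122 TPM in animal 2, ahead of Pomp. The lowest were the ligase gene Ube3c at 11 TPM in animal 1 and 12.4 TPM in animal 2 and the deubiquitinase gene Uchl5 at 11.1 TPM and 9.35 TPM. Of the 9, 2 passed the adjusted p between the libraries, Uchl5 and Sem1, both with higher scaled counts in animal 1, against 7.74% of all genes tested.

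All 4 regulators of proteasome genes were detected. Nfe2l1, which encodes the factor that raises proteasome transcription when the protease is impaired, was at 137 TPM in animal 1 and 136 TPM in animal 2. Nfe2l2 was lowest with 13.8 TPM in animal 1 and 10.8 TPM in animal 2. The protease Ddi2 and the glycanase Ngly1, both needed to process the Nfe2l1 product, were at 17.6 TPM and 16.2 TPM in animal 1 and at 16.6 TPM and 18.9 TPM in animal 2. Of the 4 regulators, 3 had higher scaled counts in animal 1 at an adjusted p under 0.05 (7.74% of all genes tested; 26.5% of protein-coding genes whose summed count reached 1000 passed in either direction), with log2 ratios of 0.46 for Nfe2l2, 0.20 for Ddi2 and 0.08 for Nfe2l1, and by TPM all 3 were also higher in animal 1.

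All 10 genes that deliver substrates were detected, with a median of 26.5 TPM in animal 1 and 26.4 TPM in animal 2. The unfoldase Vcp was at 83.4 TPM in animal 1 and 85.8 TPM in animal 2, and Zfand5, a proteasome-binding protein known from wasting muscle, at 83.4 TPM and 85.3 TPM. Of the 10, 4 passed the adjusted p, against 14.4% of all genes tested and 26.5% of protein-coding genes whose summed count reached 1000. Ubqln4 at 21.4 TPM and 26.3 TPM was the 1 of these 4 whose scaled counts were higher in animal 2, although by TPM Vcp and Zfand5 were too. Ubqln2 was lowest with 5.90 TPM in animal 1 and 5.51 TPM in animal 2. Of the enzymes that activate ubiquitin, Uba1 was at 45.9 TPM in animal 1 and 52.2 TPM in animal 2 and Uba6 at 1.57 TPM and 1.70 TPM.

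The antigen presentation and interferon genes were low beside these, as the immune subunits were. Of 10 genes, 8 were detected, and the median over all 10 was 4.91 TPM in animal 1 and 6.84 TPM in animal 2. B2m, the light chain of class I molecules, was highest with 20.9 TPM in animal 1 and 24.1 TPM in animal 2, followed by Tapbp at 10.7 TPM and 12.2 TPM. Tap1 and Nlrc5 were not detected, Nlrc5 at 0.08 TPM in both animals. The 3 immune subunit genes were higher in animal 2 by TPM, but neither of the 2 that were tested passed the adjusted p.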

How the data were processed

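Total RNA-seq was analysed from 2 libraries of 1 group. The first gene and transcript tables hold expected counts and TPM computed by the authors, and posterior mean TPM with interval bounds (read as a score) and the percent of each gene held by a transcript, per the file headers. Estimated counts and TPM in a second transcript table came from another quantification, per the file headers. The build (mm10) and annotation (GENCODE M21) are named in descriptions deposited beside the tables. Which tools were run, and whether counting used strand, is not given in the sources used here. The genome sequence is that of C57BL/6J, and the libraries come from its cross with CAST/EiJ.

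Gene TPM was used as deposited. TPM of transcripts in the second table was summed per gene, and for comparing the quantifications both were scaled over nuclear protein-coding genes. Detection was 1 TPM or more in both animals. Expected counts were rounded and scaled by TMM (edgeR 4.0.16, R 4.3.3), and each gene reaching a summed count of 20 was compared between libraries by a two-sided exact binomial test conditional on that sum, with Benjamini-Hochberg adjusted p-values. Ratios had a prior count of 0.5. With 1 library per animal and 1 group, no quasi-likelihood test was possible. Tested on simulated counts for animal 1 over animal 2 (14563 genes), 100 of 100 genes changed 3-fold and 100 of 100 changed 4-fold were called over 2-fold, as were 0 of 14363 unchanged genes. Of the unchanged genes, 8 passed the adjusted p alone. The simulated counts carried Poisson error only, as the test assumes, so they do not cover variation between animals. The changed genes were picked among those with more counts. A count of 0 allows 3 counts, 0.0855 CPM in animal 1 and 0.0802 CPM in animal 2. Poisson, Wilson and floor values cover counting error only, since reads are not independent molecules. Pair intervals are exact binomial intervals for the share of the constitutive gene in the counts of the pair. They were turned into ratios and corrected for effective length.

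Alternatives were DESeq2 1.42.0 size factors, TPM ratios, the second quantification, posterior mean TPM, protein-coding transcripts alone, other thresholds, and each animal alone. The members and lists were chosen with earlier results of these data known. Named were all catalytic, activator, inhibitor and assembly genes, the highest and lowest gene of each role, those under 1 TPM, those past the adjusted p, and those whose quantifications or leading transcripts differed; of the other lists, the highest and lowest. Some genes of these lists are not reported here. Other genes were named after their values were seen. Shared sequence was measured as 31-base stretches of the leading coding transcript. No protein sequences were used here.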

Additional observations from a re-analysis of the deposited data

How the results depend on the processing

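The signs of the 3 catalytic pair ratios and the detection of the core genes held under every alternative run, while sizes moved. Between 38 and 47 genes were detected across thresholds and quantifications. The core median was 70.9 TPM in the second quantification, 41.4 TPM with coding transcripts alone and 111 TPM when scaled over nuclear protein-coding genes. The log2 ratio of Psmb5 over Psmb8 was 5.74 with posterior mean TPM and 6.64 with coding transcripts, that of Psmb6 over Psmb9 was 6.98 with posterior mean TPM, and that of Psmb7 over Psmb10 was 6.28 with coding transcripts. The immune share was 0.919% with coding transcripts and 2.13% in expected counts. Between the libraries, 12 genes passed the adjusted p by the ratio of TPM, all higher in animal 2 (31.8% of all genes tested passed), and 7 in the second quantification (13.8%), 3 higher in animal 1 and 4 in animal 2. By TPM the median log2 ratio of detected nuclear protein-coding genes was −0.12, against −0.0015 by scaled counts; the cause was not tested further. With either animal alone, 44 to 45 genes were detected, the core median was 43.8 to 44.7 TPM, the pair ratios were 5.91 to 6.31 (Psmb5 over Psmb8), 7.57 to 8.23 (Psmb6 over Psmb9) and 3.88 to 4.30 (Psmb7 over Psmb10), the immune share was 2.43 to 3.21%, and the leading transcript was coding in 42 to 43 genes. No paired analysis was possible because there is 1 group, and leaving out a library leaves no comparison between libraries. Depth limits Psmb8 and Psmb9, which rest on 33 counts or fewer per library.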
